A study of Mus musculus with 46 samples.

Results

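The inserts placed downstream of a reporter in a vector without a promoter were 118 DNA fragments, measured as 219 inserts when the strands of a fragment are counted apart. They are every construct of the Downstream assay whose vector is marked as holding no promoter. The whole Downstream table holds 127 fragments in 2364 constructs over 11 vectors, and the series holds 514 fragments in 91657 constructs. Of the 118 fragments, 76 were candidate cis-regulatory elements (cCREs), giving 137 inserts, and 22 were promoter fragments, giving 43. The controls were 15 shuffled cCREs with 29 inserts and 5 random sequences with 10. A total of 61 cCREs, 21 promoter fragments, 14 shuffled cCREs and 5 random sequences were measured in both strands. The strand is given as in the authors' table, written here as + or - after the fragment name, and what it is relative to is not stated there.

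The series measured barcoded reporter plasmids in bulk after nucleofection into E14TG2a, an established line of mouse embryonic stem cells (mESC) that was grown in 2i+LIF. The cells had no genetic treatment, and no drug treatment beyond this medium. RNA was collected after 24 h. All Downstream vectors and inserts went into the cells as a single mix, in 3 biological replicates (cDNA), with 2 technical replicates of the plasmid input (pDNA). Activity is the authors' deposited ratio of barcodes in cDNA to barcodes in pDNA, on a linear scale whose unit is not stated, and the number of barcodes or reads behind a value is unknown. The plasmids are episomal and 1 cell line was used, so the values describe 450 bp fragments outside their chromosomal setting. Replicates are separate transfections of the same plasmid pool, so the errors do not cover how plasmids carrying the same insert vary. The cCREs and promoter fragments were cloned in a sublibrary other than that of the controls, so sublibrary and class of insert cannot be told apart.

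As background, promoters are the sequences at which RNA polymerase II begins transcription, and enhancers are distal elements that raise transcription from promoters. The division is not sharp: many enhancers start short RNAs of their own, and some promoters act as enhancers. In a vector without a promoter, reporter RNA can come from transcription that begins in the insert or elsewhere in the plasmid, and the assay does not separate these sources.

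The fragments come from the Klf2 locus on mouse chromosome 8, between 71885062 and 72758736 (mm10, positions as deposited). Klf2 encodes a zinc finger transcription factor of the pluripotency network of mouse embryonic stem cells. By RefSeq genes of the same assembly (GRCm38.p6), 54 of the 76 cCREs overlapped a gene and 22 lay between genes, and 19 of the 22 promoter fragments overlapped a gene. A RefSeq window around an annotated gene start overlapped 3 cCREs and 18 promoter fragments. For 6 fragments that span the range of activities, the part of that window inside the fragment is shown, 5′ to 3′ on the strand of the gene. Capitals mark matches on either strand to GGGCGG (called a GC box), to CCAAT, to TATAAA (called the TATA box) or to CCGGAAG (an ETS core). E007 is the cCRE with the highest activity among those with such a window (Zfp617, chr8:71922575-71922874, plus strand), and P021 and P018 are the promoter fragments with the highest activity (Med26, chr8:72548261-72548560, minus strand, and Calr3, chr8:72443729-72444028, minus strand). P016 is the promoter fragment of Klf2 (chr8:72318812-72319107, plus strand). E030 (Gm39196, chr8:72125875-72126174, minus strand) and P004 (Cyp4f18, chr8:72009577-72009876, minus strand) had low activity.
E007 Zfp617: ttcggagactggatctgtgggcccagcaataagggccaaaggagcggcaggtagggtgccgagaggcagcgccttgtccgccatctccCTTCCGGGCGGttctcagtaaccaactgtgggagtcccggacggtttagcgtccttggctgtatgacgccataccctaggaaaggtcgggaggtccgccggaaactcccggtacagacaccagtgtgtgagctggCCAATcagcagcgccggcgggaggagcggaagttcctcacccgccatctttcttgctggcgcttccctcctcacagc
P021 Med26: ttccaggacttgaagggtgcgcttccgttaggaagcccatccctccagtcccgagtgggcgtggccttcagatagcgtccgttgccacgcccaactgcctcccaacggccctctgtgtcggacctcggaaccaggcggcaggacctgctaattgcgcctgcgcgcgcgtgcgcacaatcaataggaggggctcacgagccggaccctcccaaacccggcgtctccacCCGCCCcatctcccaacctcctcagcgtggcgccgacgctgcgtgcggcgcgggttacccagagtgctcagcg
P018 Calr3: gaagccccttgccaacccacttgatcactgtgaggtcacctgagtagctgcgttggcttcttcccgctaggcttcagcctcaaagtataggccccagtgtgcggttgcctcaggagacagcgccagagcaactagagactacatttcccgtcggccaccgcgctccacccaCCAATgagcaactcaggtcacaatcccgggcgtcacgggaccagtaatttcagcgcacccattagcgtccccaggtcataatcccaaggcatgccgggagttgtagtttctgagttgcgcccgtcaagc
P016 Klf2: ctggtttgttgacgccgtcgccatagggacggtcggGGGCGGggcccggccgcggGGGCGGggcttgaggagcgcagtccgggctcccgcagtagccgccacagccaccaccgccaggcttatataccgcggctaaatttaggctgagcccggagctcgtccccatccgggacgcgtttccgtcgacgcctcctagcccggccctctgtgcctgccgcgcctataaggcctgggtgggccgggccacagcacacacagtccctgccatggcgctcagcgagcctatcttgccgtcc
E030 Gm39196: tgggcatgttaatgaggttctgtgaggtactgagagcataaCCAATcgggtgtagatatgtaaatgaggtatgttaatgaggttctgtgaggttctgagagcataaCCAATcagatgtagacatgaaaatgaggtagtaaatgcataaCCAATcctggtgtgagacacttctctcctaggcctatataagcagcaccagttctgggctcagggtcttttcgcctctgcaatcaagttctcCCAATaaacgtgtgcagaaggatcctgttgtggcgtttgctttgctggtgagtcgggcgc
P004 Cyp4f18: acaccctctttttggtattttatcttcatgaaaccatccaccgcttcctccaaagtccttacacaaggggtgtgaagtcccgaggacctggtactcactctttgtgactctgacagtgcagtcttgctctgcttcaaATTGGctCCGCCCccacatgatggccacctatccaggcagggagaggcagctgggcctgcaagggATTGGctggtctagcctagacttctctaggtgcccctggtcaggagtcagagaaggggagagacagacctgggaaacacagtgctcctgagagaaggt

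These windows held 21 CpG dinucleotides in E007, 31 in P021, 16 in P018 and 32 in P016, but 6 in E030 and 3 in P004. The median over all 32851 RefSeq windows of 300 bases was 7. In E007 the GC box and the ETS core share letters. A GC box was found in 35.7% of all RefSeq windows, CCAAT in 37.4%, a TATA box in 13.6% and an ETS core in 8.86%. Among the 19 fragments with at least 200 bases of such a window, 9 held a GC box, 11 held CCAAT, 1 a TATA box (P025, Sin3b) and 4 an ETS core (E007, P009, P013 and P019). Windows of low activity held matches too: P004, the lowest promoter fragment, held 1 GC box and 2 CCAAT matches, and E030 held 4 CCAAT matches. Across the 19 fragments, log2 activity without a promoter had a Pearson correlation of 0.62 and a Spearman correlation of 0.67 with CpG per 100 bases, and 0.54 and 0.59 with GC percent. Over the 17 promoter fragments among them, Pearson's r with CpG was 0.63. These fragments share the transfections, and CpG and GC content go together, so the values are a description.

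Median activity without a promoter was 0.142 for cCRE inserts and 0.142 for promoter inserts, against 0.0814 for control inserts. The cCREs reached the highest values, from 0.0473 to 1.26, while promoter inserts ran from 0.0365 to 0.469 and controls from 0.0433 to 0.532. The medians in replicates 1, 2 and 3 were 0.107, 0.173 and 0.160 for cCREs, 0.104, 0.177 and 0.148 for promoter inserts, and 0.0631, 0.0993 and 0.0895 for controls. Replicate 1 was the lowest for each class. Within replicates, the mean log2 activity of cCREs exceeded that of controls by 0.45, 0.47 and 0.61, a mean of 0.51 ± 0.09 (SD, n = 3), or 1.42-fold. For promoter inserts the differences were 0.46, 0.51 and 0.55, a mean of 0.50 ± 0.04 (SD, n = 3), also 1.42-fold. Both classes were thus above controls in 3 of 3 replicates, and the exact two-sided sign-flip p of 0.25 for each is the smallest that 3 replicates allow.

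The 4 kinds of insert overlapped widely. Of the cCRE inserts, 112 of 137 (81.8%) lay above the median of control inserts, as did 40 of 43 promoter inserts (93.0%). Averaged over strands, the classes lay closer together. The median per fragment was then 0.138 for cCREs and 0.146 for promoter fragments, against 0.118 for control fragments. The activity listed for the vector itself was 0.102, 0.194 and 0.155 in the 3 replicates, with a geometric mean of 0.145. That level lies near the median of cCREs and promoter fragments and above that of the controls: 63 cCRE inserts (45.99%), 20 promoter inserts (46.5%) and 11 of 39 control inserts (28.2%) exceeded it. What plasmid this entry stands for is not stated in the sources used here.

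**Figure D1:**
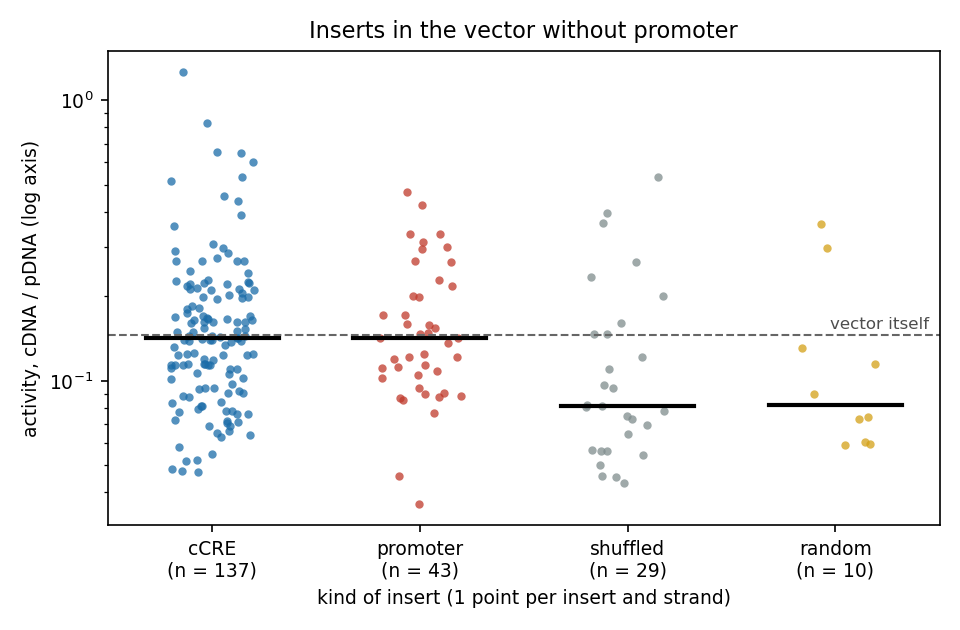
Activity without a promoter (cDNA over pDNA, log axis) of each insert and strand, by kind of insert; each point is the geometric mean of 3 replicates, thick lines are medians and the dashed line is the vector itself (0.145). The cCREs and promoter fragments have medians of 0.142, the controls have a median of 0.0814, and all kinds overlap.

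Each insert was set against the mean of the controls in the same vector with limma on log2 activity, 3 replicate values against 3. The fit without a block gave every insert the same SE, 0.30, pooled over inserts. Its p-values thus do not reflect the replicate spread of a single insert. For E082-, the fit with the replicate as a block gave an SE of 0.11 (limma adjusted p = 4.26e-16). After Benjamini-Hochberg (BH) adjustment over 219 inserts at 0.05, 34.2% of all inserts were higher and 10.5% lower than the control mean. Of the cCRE inserts, 52 of 137 rose above the controls and 9 fell below them. Of the promoter inserts, 15 of 43 were higher and 2 lower. Shuffled and random sequences, each set against the other controls, gave 8 of 39 higher and 12 lower, so passing this test also occurred among sequences with no selected element. The count of 12 lower controls was 18 without replicate 1, 8 without replicate 2, 1 without replicate 3 and 4 with the median over controls as baseline. The values compared share a transfection, and with the replicate as a block 54.8% of all inserts were higher and 23.7% lower. The blocked counts were 84 higher and 27 lower among cCREs, 24 and 4 among promoter inserts, and 12 and 21 among controls. Counts of higher inserts also rested on single replicates: without replicate 1 they were 78 for cCREs and 23 for promoter inserts, and without replicate 3 they were 19 and 9. Over all inserts they were 114 without replicate 1 and 34 without replicate 3, and among controls 13 and 6. Without replicate 3 no cCRE insert was lower, and without replicate 1 there were 22, against 2 and 43 over all inserts. The baseline set the split of calls, too. Against the vector itself, an alternative chosen after seeing the data, 20 cCRE inserts were higher and 24 lower, and 9 promoter inserts were higher and 3 lower. Over all 219 inserts 35 were higher and 46 lower, and among the 39 controls 6 and 19. The share called higher was thus 14.6% of cCRE inserts, 20.9% of promoter inserts and 15.4% of controls. With the replicate block as well, the counts were 44 and 51 for cCREs and 13 and 16 for promoter inserts, so the split turned for promoter inserts. Over all inserts they were 65 and 93, and among controls 8 and 26. With the median over the controls as baseline, 95.3% of the calls among cCRE and promoter inserts were higher, with the control mean 85.9%, with the median construct 56.7% and with the vector itself 51.8%.

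The cCREs E082, E011, E097, E007 and E046 stood at the top, and all 5 had higher activity than every promoter fragment when the strands were averaged. E082 lies between genes, with Med26 as the nearest (chr8:72555765-72556215). Its activity in the 3 replicates was 0.631, 0.870 and 0.945, a geometric mean of 0.803. E011, within the zinc finger gene Zfp961 (chr8:71952937-71953387), had 0.641, 0.840 and 0.657, a mean of 0.707. These were the highest fragments of the vector, and every replicate of both lay above the highest control fragment, a shuffled version of E046 with a mean of 0.224.

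E097, within Nwd1 (chr8:72676845-72677295), had a mean activity of 0.542, and E007, which spans the start of the zinc finger gene Zfp617 shown above (chr8:71922525-71922975), had 0.534. E046, between genes with Gm51537 as the nearest (chr8:72271221-72271671), had 0.455. The sixth, E029, was measured in 1 strand only and had 0.257, 0.286 and 0.329. By limma against the control mean, with BH adjustment, the - strand of E082 was 12.2-fold higher (log2 difference 3.61, SE 0.30, adjusted p = 1.54e-29) and its + strand 4.99-fold (2.32, SE 0.30, adjusted p = 2.98e-13). The + strand of E011 was 8.07-fold higher (adjusted p = 3.59e-21) and its - strand 5.85-fold (adjusted p = 1.13e-15), again by limma. The inserts of E097, E007 and E046 lay between 3.77-fold (E046-) and 6.33-fold (E007-) above the control mean, and all passed the test.

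Set against the range of the 20 control fragments, from 0.0477 to 0.224, 13 of 76 cCREs lay above it on their mean over strands, and 7 of these did so in all 3 replicates. A single cCRE lay below it, E103 within Sin3b, at 0.0473, just under the lowest control, a shuffled E095. E103 was measured in 1 strand, and among single inserts no cCRE (0 of 137) lay below the lowest control insert, at 0.0433. The other lowest cCREs were E048 at 0.0547, E075 at 0.0559 and E096 at 0.0583, all inside the range of the controls. By limma, E103- was lower than the control mean by a log2 difference of -1.12 (SE 0.30, adjusted p = 6.97e-04), and E048+ by -0.91 (adjusted p = 0.0060). At the level of single strands the range of controls was wider, and 6 cCRE inserts and no promoter insert lay above the highest control insert. The cCREs between genes had a median of 0.165, with 7 of 22 above the control fragments, and those within genes had a median of 0.120, with 6 of 54 above.

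**Figure D2:**
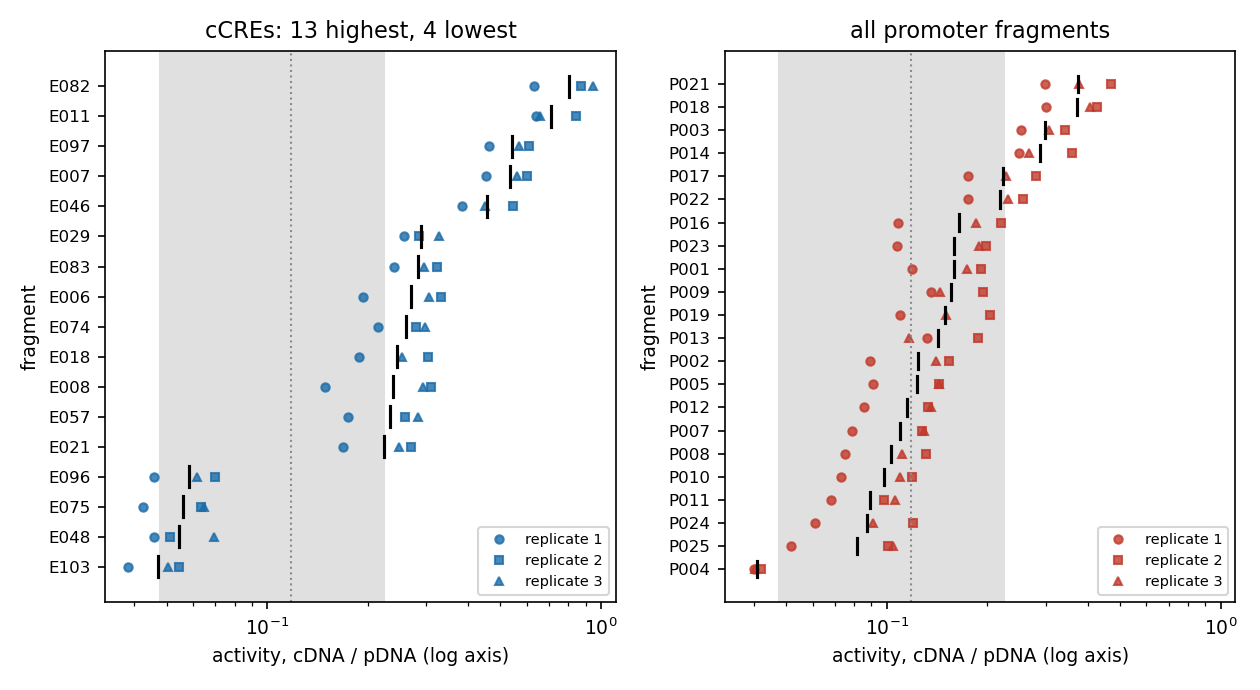
Activity (log axis) of the 13 cCREs above the control fragments with the 4 lowest cCREs, and of all 22 promoter fragments; symbols are the 3 replicates averaged over strands, black bars the geometric means, the grey band the range of the 20 control fragments (0.0477 to 0.224) and the dotted line their median. E082 to E046 lie above 0.45, and P021, P018, P003 and P014 lie above the band in all 3 replicates.

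Neighbouring elements differed to unlike degrees. E007 and E008 share 69 bp, and had activities of 0.534 and 0.239. E097 and E098 lie 11 bp apart and had 0.542 and 0.0661, so the second was below the control median. Other pairs of cCREs differed less. E020 and E021 share 274 bp and had 0.136 and 0.225, and E005 and E006 share 96 bp and had 0.200 and 0.270. E091 and E092 share 79 bp and had 0.111 and 0.0637, and the adjacent E104 and E105 had 0.105 and 0.164. For 5 cCREs the shuffled versions, 3 for each, were measured in the same vector. E006 had 0.270 against a range of 0.0616 to 0.165 for its shuffled versions, E046 had 0.455 against 0.134 to 0.224, and E095 had 0.149 against 0.0477 to 0.131. Averaged over strands, the native sequence was above every shuffled version in these 3. Single strands overlapped: E6-shuffled2+ had 0.364, above 0.267 and 0.273 for E006+ and E006-, and E46-shuffled2+ had 0.532, above 0.388 for E046- and next to 0.533 for E046+. The log2 difference of E95-shuffled2- from the other controls was 1.22, above 0.65 and 0.43 for E095+ and E095-. By the same means over strands, E027 at 0.156 lay above 2 of 3, and E030, whose start window is shown above, at 0.0588 lay above 1 of 3. As log2 differences from the mean of the shuffled versions, these are 1.57, 1.48, 1.13, 0.40 and -0.60.

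Among promoter fragments, P021, of the Mediator subunit gene Med26, and P018, between the divergent genes Calr3 and 1700030K09Rik, had the highest activity. P021 had 0.298, 0.470 and 0.377 in the 3 replicates (geometric mean 0.375), and P018 had 0.299, 0.426 and 0.405 (0.372). The 2 fragments did not differ beyond their replicate spread. P003 of Zfp961 followed with 0.253, 0.341 and 0.306, and P014 of Ap1m1, which encodes a subunit of a clathrin adaptor complex, with 0.249, 0.360 and 0.267. These 4 of 22 promoter fragments lay above all control fragments, in each of the 3 replicates. P017 of the endocytic adaptor gene Eps15l1 and P022, at the start of Smim7 and overlapping Tmem38a, had means of 0.223 and 0.218, just inside the control range.

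In the limma test against the control mean, P018- was 4.56-fold higher (log2 difference 2.19, SE 0.30, adjusted p = 6.66e-12) and P021+ was 4.09-fold higher (2.03, SE 0.30, adjusted p = 1.92e-10). The promoter fragment of Klf2, P016, had 0.108, 0.220 and 0.186, a mean of 0.164, which is within the range of controls. Its + strand was 1.93-fold above the control mean (limma adjusted p = 0.0043), and its - strand 1.32-fold (adjusted p = 0.25, and 0.0037 with the replicate block). At the bottom stood P004 of Cyp4f18, a cytochrome P450 gene, with 0.0399, 0.0422 and 0.0403. It was the only promoter fragment below every control fragment, and limma gave log2 differences of -1.17 (adjusted p = 3.82e-04) and -1.50 (adjusted p = 3.99e-06) for its + and - strands. P025, P024 and P011, of Sin3b, Nwd1 and Cib3, had 0.0817, 0.0874 and 0.0893.

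Of the promoter fragments, 10 are also the promoters of the other Downstream vectors. As inserts without another promoter, these 10 had activities from 0.142 to 0.375, with a median of 0.189, and the 12 others from 0.0408 to 0.298, with a median of 0.106. The order was P021, P018, P014, P017, P022, P016, P001, P009, P019 and P013. From P016 (0.164) through P001 of Zfp882 (0.159), P009 of the small GTPase gene Rab8a (0.156) and P019 of Cherp (0.150) to P013 of Fam32a (0.142) the means lay within 1 SD of each other. Besides P016-, given above, P001+, P009+, P009- and P013- among these passed the test against the control mean only with the replicate as a block (limma adjusted p = 0.15, 0.094, 0.074 and 0.18 without it, and 2.46e-04, 6.29e-05, 5.57e-05 and 0.0015 with it).

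The authors' mean activity of the same fragments placed singly upstream of the reporter, from a table normalised on its own, were set beside these values. Across 76 cCREs, log2 values of both tables had a Pearson correlation of 0.67 and a Spearman correlation of 0.56, and across 22 promoter fragments 0.81 and 0.81. E007, E011 and E097 held ranks 1, 2 and 3 among the cCREs upstream, with 3.91, 2.32 and 1.48, and E046 held rank 5 with 0.426. E082, the highest cCRE downstream, held rank 10 upstream with 0.315. E029, with 1 strand measured downstream, held rank 6 there and rank 73 upstream. In the other direction, E030 held rank 72 downstream with 0.0588 and rank 6 upstream with 0.421. The points of these correlations share cell line and fragment sequence, and no test was made of them.

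The strand in which an insert was placed was compared for 101 fragments with limma. Here too the fit without a block gave every fragment the same pooled SE, 0.32. After BH adjustment, 14.9% of them differed between strands. Of the cCREs, 5 of 61 differed, of the promoter fragments 1 of 21 (P022), and of the controls 9 of 19, 7 of 14 shuffled and 2 of 5 random. With the replicate as a block, 61.4% of the 101 differed, namely 41 cCREs, 9 promoter fragments and 12 controls. Without replicate 1 the total was 45. The log2 activities of the 2 strands had a Pearson correlation of 0.78 over cCREs, 0.89 over promoter fragments and 0.01 over the 19 controls (Spearman 0.68, 0.86 and 0.40). In the vectors with a promoter, the same correlation over cCREs and promoter fragments together ran from 0.27 (P022) to 0.73 (P019), against 0.80 without a promoter. Over controls it ran from -0.15 (P021) to 0.15 (P009), leaving out the P001 vector, in which 1 control was measured in both strands.

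The 5 largest strand differences were all in control sequences. A shuffled E046 (E46-shuffled2) had 0.454, 0.720 and 0.460 on the + strand and 0.0545, 0.144 and 0.107 on the - strand, so the strands did not overlap (log2 difference 2.49, SE 0.32, limma adjusted p = 1.27e-11). The random sequence RRandom4 had 0.361 on the + and 0.0730 on the - strand, and E27-shuffled1 had 0.0814 on the + and 0.396 on the - strand. E6-shuffled2 had 0.364 and 0.0750, and E46-shuffled3 had 0.0778 and 0.266, on the + and - strands. The higher strand was thus + in 3 and - in 2 of these. Among cCREs, the largest strand differences were those of E105 within Sin3b (log2 difference of + minus -, -1.72, limma adjusted p = 3.07e-06) and E034 within Tpm4 (1.67, limma adjusted p = 4.82e-06). E082 followed, with 0.412, 0.537 and 0.614 on the + strand and 0.965, 1.41 and 1.45 on the - strand. The - strand was higher in 3 of 3 replicates (log2 difference -1.29 for + minus -, SE 0.32, limma adjusted p = 7.95e-04). The strands of E011, E097, E007 and E046 differed by log2 values of 0.46 to 0.57 in size, which passed only with the replicate as a block. P018 had 0.295 on the + and 0.469 on the - strand (limma adjusted p = 0.18, and 0.0031 with the replicate block).

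**Figure D3:**
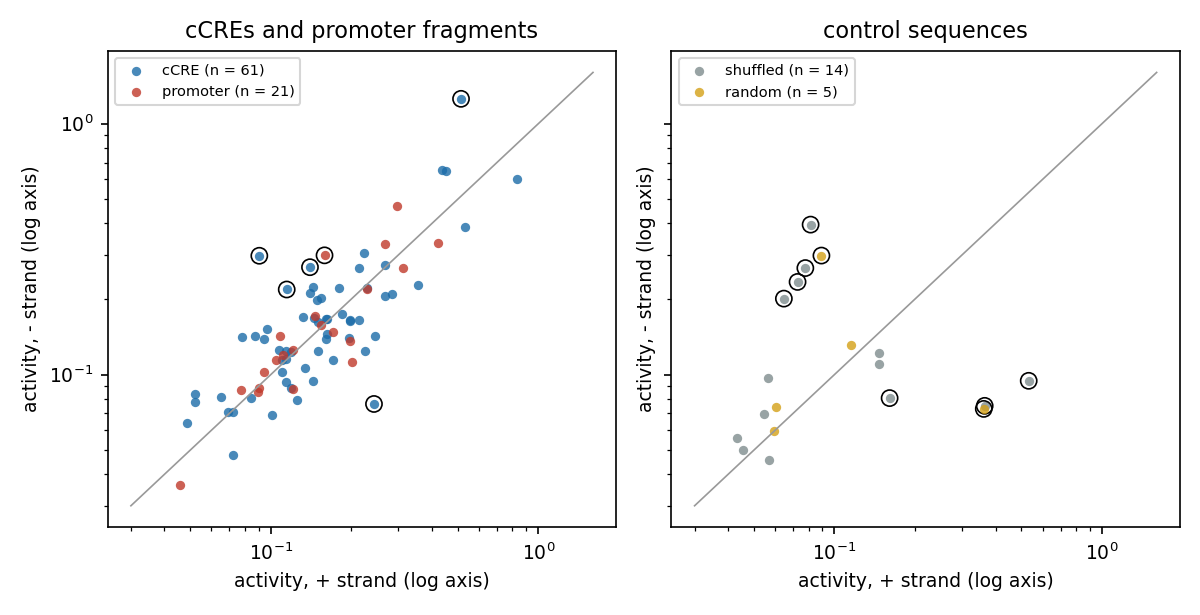
Activity of the + strand against the - strand without a promoter (log axes), for cCREs and promoter fragments on the left and for controls on the right; the line marks equal activity and rings mark the 15 fragments that differed by limma at an adjusted p under 0.05. Points of cCREs and promoter fragments follow the line (r of 0.78 and 0.89), and those of the controls do not (0.01).

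Vectors with a promoter had higher activity than the vector without one for nearly every insert. Over 2062 pairs of an insert in the vector without a promoter and the same insert and strand in a vector with one, limma called activity lower without a promoter in 96.8% (1996 pairs) and higher in 0.291% (6 pairs). The median difference was 7.36-fold over all pairs. It was 1.99-fold for the P001 vector (Zfp882) and 2.79-fold for P019 (Cherp), and 24.8-fold for P022 (Smim7 and Tmem38a). The 6 exceptions all lay in P001 and P019, the 2 vectors with the lowest control activity among those with a promoter. E082- had 1.26 without a promoter and 0.421 with the P019 promoter (log2 difference 1.58, SE 0.25, limma adjusted p = 5.42e-10). Against P001, E011+ had 0.831 and 0.488, E097- had 0.648 and 0.425, and E082+ had 0.514 and 0.350. The random sequence RRandom4+ had 0.361, against 0.182 with P001 and 0.237 with P019. With the stronger promoters of Klf2, Calr3 and Fam32a (P016, P018 and P013), E082- had 1.06, 1.07 and 1.10, and the differences from 1.26 did not pass the test (limma adjusted p = 0.33, 0.36 and 0.45). The differences, without minus with a promoter, were 0.25, 0.23 and 0.19 on the log2 scale, each with an SE of 0.25. This SE was pooled over pairs and is not that of a single pair.

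To compare what an insert adds in each vector, its effect was taken as log2 activity minus the control mean of the same vector and replicate. Effects spread more widely without a promoter. Their SD over inserts was 0.87 for cCREs, against 0.42 to 0.56 in single vectors with a promoter. It was 0.80 against 0.43 to 0.63 for promoter inserts, and 1.00 against 0.45 to 0.89 for controls, each over the inserts measured in a vector. The spread of log2 activity between replicates was larger as well, with a median SD of 0.37 without a promoter, and 0.083 (P021) to 0.35 (P016) in the vectors with one. These SDs are of activity before the control mean is taken off, so they include shifts that all inserts share. Without a promoter the SD of the effect was 0.11 for E007+ (0.21 for its activity) and 0.54 for E087- (0.81). Replicates correlated at 0.94, 0.94 and 0.96 over the 219 inserts.

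For the 218 inserts measured in at least 3 vectors with a promoter, limma compared the effect without a promoter with the mean effect with one. The effect was higher without a promoter for 45% of inserts and lower for 22%. It was higher for 65 of 136 cCRE inserts and lower for 20, and higher for 22 of 43 promoter inserts and lower for 8. For controls the counts were 11 higher and 20 lower of 39. With the median construct of each vector as baseline in place of the controls, calls among cCRE and promoter inserts were 63 higher and 64 lower, against 87 and 28 with the controls, and with a pseudocount of 0.1 they were 65 and 46. The direction of the group thus depends on the baseline. The effects without a promoter went along with the mean effects with one: Pearson's r was 0.67 over 136 cCRE inserts and 0.75 over 43 promoter inserts. Over the 39 controls it was 0.28. Among 179 cCRE and promoter inserts, 10 of the 20 with the largest effects without a promoter were also among the 20 largest with one. All 20 with the largest effects without a promoter had a mean effect above 0 with one. A mean effect above 0 was common, as its median with a promoter was 0.21 over all cCRE inserts and 0.27 over all promoter inserts. Constructs of a vector share its controls, so these correlations are descriptions.

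**Figure D4:**
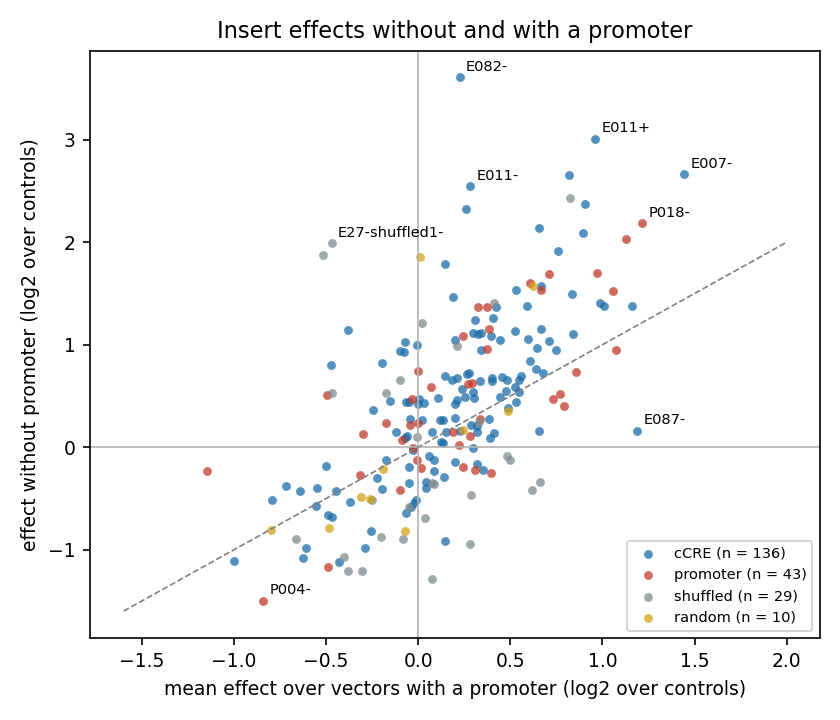
Effect of each insert without a promoter against its mean effect over the vectors with a promoter (log2 over the control mean of the vector), 1 point per insert and strand; the dashed line marks equal effects. E082- lies far above the line at 3.61 against 0.23, and E087- lies below it at 0.16 against 1.19.

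The largest difference was that of E082. On the - strand its effect was 3.61 without a promoter and 0.23 over 6 vectors with one, a difference of 3.38 (SE 0.09, limma adjusted p = 1.03e-08). On the + strand it was 2.32 against 0.26 over 10 vectors, a difference of 2.06 (SE 0.11, limma adjusted p = 8.44e-07). In single vectors the effect of E082- ran from -0.06 (P017) to 0.38 (P013). Among cCREs E011 followed, with 2.55 against 0.28 on the - strand and 3.01 against 0.96 on the + strand, both with an adjusted p of 8.44e-07 by limma. The + strand of E011 had an effect above 0 in each of the 10 vectors, from 0.22 (P017) to 1.72 (P021), while the - strand ran from -0.69 (P014) to 1.57 (P001). The 2 controls E27-shuffled1- and E6-shuffled2+ had differences of 2.46 and 2.39. These were larger than those of every cCRE and promoter insert except E082-.

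The - strand of E007 kept a larger effect in the vectors with a promoter. It had 2.66 without a promoter and 1.45 on average with one, from 1.04 (P014) to 2.29 (P001). The + strand of E007 had 2.09 and 0.89, and its effect with a promoter was below the 0.96 of E011+. E097- had 2.65 and 0.82, and E046+ had 2.37 and 0.91. The 2 promoter fragments with the highest activity had smaller differences than these cCREs, while the median difference over all promoter inserts was 0.26, against 0.23 over cCRE inserts. P021+ had an effect of 2.03 without a promoter and 1.13 with one, and P018- had 2.19 and 1.22. Their effects in single vectors ran from 0.83 (P014) to 1.28 (P001) and from 0.91 (P017) to 1.79 (P001).

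The - strand of the Klf2 promoter fragment was among the 8 of 43 promoter inserts that differed in the other direction. Both strands of P011 of Cib3 had larger differences in this direction, -0.43 for + and -0.53 for - (limma adjusted p = 0.0042 and 0.0044). P016- had 0.40 without a promoter and 0.79 with one (difference -0.39, SE 0.13, limma adjusted p = 0.022), and P016+ had 0.94 and 1.08, which did not pass the test (difference -0.13, SE 0.11, adjusted p = 0.30). P001 of Zfp882 had 0.51 and 0.74 on its + and - strands without a promoter but mean effects of -0.49 and -0.0039 with one (limma adjusted p = 5.79e-06 and 5.00e-05). P004 was below controls in each setting, with -1.17 and -1.50 without a promoter and -0.49 and -0.84 with one.

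For some other cCRE inserts the effect was higher with a promoter than without. E087-, within Gm51538 (chr8:72590167-72590617), had 0.0603, 0.153 and 0.165 without a promoter, an effect of 0.16 that did not differ from controls by limma (adjusted p = 0.67). With a promoter its mean effect was 1.19 over 8 vectors, and the difference was -1.03 (SE 0.22, limma adjusted p = 0.0029). Single vectors ranged from 0.42 (P017) to 2.08 (P022). On the + strand, E087 had 0.14 without a promoter and 0.41 with one. That difference of -0.27 (SE 0.11) did not pass the test without the replicate block (limma adjusted p = 0.054). E048+, between genes near Gm51537, had an effect of -0.91 without a promoter and 0.14 with one, a difference of -1.06 (SE 0.15, limma adjusted p = 2.20e-04). Only this strand of E048 was measured without a promoter. Its median effect over the vectors with a promoter was 0.03, and the highest was 0.97 (P021). The other inserts among the 6 with the largest differences in this direction were controls: E30-shuffled2+ at -1.36, E6-shuffled3+ at -1.22, E46-shuffled3+ at -1.03 and E27-shuffled3+ at -0.999.

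**Figure D5:**
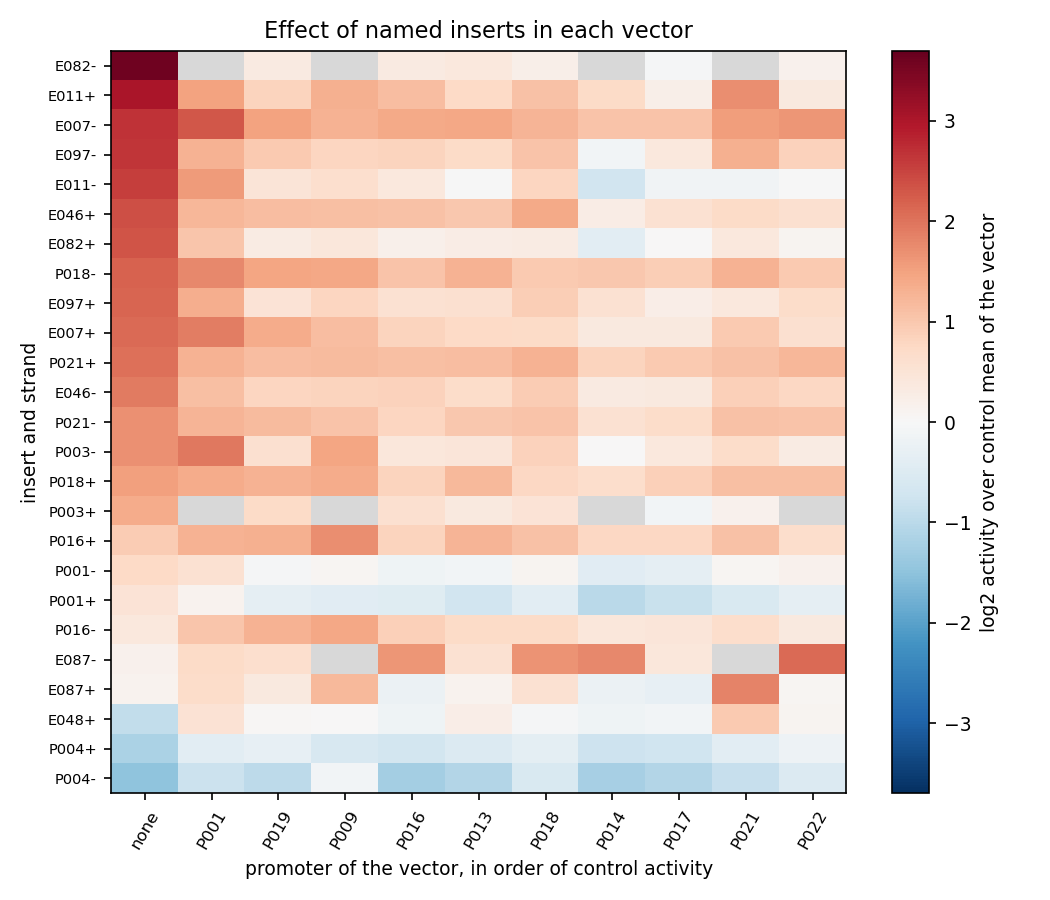
Effect (log2 activity over the control mean of the vector) of named inserts, in rows ordered by the effect without a promoter, in the vector without a promoter (none) and in 10 vectors ordered by the mean activity of their controls; grey cells were not measured. E082- is at 3.61 without a promoter and between -0.06 and 0.38 in the 6 vectors that hold it, E007- is above 1 throughout, and E087- has its highest value, 2.08, with P022.

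Vector by vector, over the same 2062 pairs, effects were called higher without a promoter in 45.6% and lower in 22.2% by limma. The P001 vector departed from the others, with 33 of 180 inserts higher and 83 lower, and it was also the vector with the fewest control inserts, 10 against 32 to 40 elsewhere. In each of the other 9 vectors more inserts had a higher effect without a promoter than a lower one, from 78 against 57 in P022 to 137 against 28 in P017. The Pearson correlation of cCRE and promoter effects with those in the vector without a promoter ran from 0.46 (P022, 164 inserts) to 0.74 (P016, 176 inserts, and P001, 170 inserts). Over the 10 vectors this correlation fell with the mean log2 activity of the controls (Pearson -0.67, Spearman -0.72), a description over 10 points that share all cells and inserts.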

How the data were processed

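Activities are the ratio of cDNA to pDNA barcodes that the authors deposited for each construct and biological replicate of the Downstream table; pDNA is the input, per the labels' protocols. Bowtie2 and the mm10 build are named in the submitters' processing notes, without a role. Barcode filters, scaling and depth are not given in the sources used here. For all 2364 constructs the deposited mean was the geometric mean of the 3 replicates (tolerance 0.001), and no replicate was at 0, so log2 was taken without a pseudocount. The deposited log2 boost index of the authors was used only to check its definition.

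Tests used limma 3.58.1 in R 4.3.3 (lmFit, eBayes) on log2 activity, with 3 replicates a side and Benjamini-Hochberg adjustment at 0.05 over all inserts or pairs of a comparison. Each vector's baseline was the mean over its shuffled and random inserts, and a control was compared with the other controls. The fits without a block were tested on simulated data in which both sides varied independently. That simulation held no shift shared by the values compared, so it does not bear on the choice of the replicate block. The values compared come from the same cDNA samples, and deviations of replicates 1, 2 and 3 from the class mean share their sign in all classes (-0.40, 0.24 and 0.16 for cCREs, -0.39, 0.28 and 0.11 for promoter inserts, -0.34, 0.28 and 0.06 for controls), so the replicate block is given where it moves a count by over 1.5 times or changes the call of an insert whose test is given. Annotation used RefSeq tables of GRCm38.p6, matched by position. Python 3.11.15, pandas 2.3.3, numpy 2.4.6, scipy 1.17.1 and matplotlib 3.10.9 did the rest. Another 9 columns of per-sample values could not be given to a sample and were not used.

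Members and lists were chosen with earlier results of these data known. Fragments were named by a fixed rule: the 6 highest and 4 lowest cCREs and promoter fragments, the 5 largest strand differences, the 6 largest effect differences in each direction, all vector promoters, the highest and lowest control fragments, and native partners of shuffled controls. E005, E008, E020, E021, E027, E030, E034, E091, E092, E098, E104, E105, E95-shuffled2 and the start windows shown were chosen after their values were seen. Alternatives were other baselines, pseudocounts, a filter on low values, a variance trend, the replicate block and leaving out each replicate.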

Additional observations from a re-analysis of the deposited data

Results flagged for a closer look

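The 12 inserts with the largest differences between their effect without a promoter and their mean effect with one were taken up because the difference itself passed the limma test. Toward a higher effect without a promoter these were, on the log2 scale, E082- at 3.38, E27-shuffled1- at 2.46, E6-shuffled2+ at 2.39, E011- at 2.27, E082+ at 2.06 and E011+ at 2.05. In the other direction they were E30-shuffled2+ at -1.36, E6-shuffled3+ at -1.22, E048+ at -1.06, E46-shuffled3+ at -1.03, E087- at -1.03 and E27-shuffled3+ at -0.999. Of these 12, 6 are shuffled sequences, which made up 29 of the 218 inserts tested. Passing the test was common: 67.0% of all 218 inserts passed it in either direction, and 26 of the 29 shuffled inserts did.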

How the results depend on the processing

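Counts of inserts called against controls moved with the replicate block, the baseline and single replicates, and the cause was not tested. For cCREs above controls (52) the count was 84 with the replicate block, 24 with the median construct and 20 with the vector itself as baseline, and 19 to 78 with a replicate left out. For promoter inserts above controls (15) it was 24 with the block, 23 with the median over controls, 9 with the vector itself, and 9 to 23 with a replicate left out. For cCREs below controls (9) it was 27 with the block, 3 with the median over controls, 23 with the median construct, 0 with the lowest sixth of inserts left out, 24 with the vector itself (51 with the block as well), and 0 to 22 with a replicate left out; the count of 0 from the filter follows from its construction. For controls above the other controls (8) it was 6 to 13 with a replicate left out. With the block, effect differences from the mean with a promoter were 97 higher and 52 lower (98 and 48 without it), and those from single vectors 952 and 478 (941 and 458). For strand differences (15) it was 62 with the replicate block, 8 without the lowest sixth, and 10 to 45 with a replicate left out. The correlation of cCREs with the Upstream table (0.67) was 0.55 on the minus strand alone. The alternatives with the vector itself, and those of the counts below controls and among controls, were chosen after seeing the data. The log2 differences of 6 named inserts from controls changed sign under some settings, none of them past the threshold in the original test. With the vector itself as baseline, with or without the replicate block, they were -0.36 for E087+, -0.34 for E087-, -0.072 for E095-, -0.030 for P013-, -0.096 for P016- and -0.37 for P019-. With the median construct they were -0.25, -0.23 and -0.27 for E087+, E087- and P019-, and with a pseudocount of 0.1 they were -0.0075 for E087+ and -0.0093 for P019-. E087- ran from -0.069 to 0.46 with a replicate left out. Of the other values of named inserts against controls, 591 kept their direction and their side of the threshold, 26 newly passed it and 33 no longer did. All 93 alternative values of the 12 effect differences and all 28 of the 5 strand differences kept both. Depth is unknown, so no limit of detection can be given.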
